A study of Mus musculus with 4 samples.

Results

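The genes Cd163, F13a1, Mrc1, Lyve1, Folr2, Cbr2, Pf4, Retnla, Clec10a and Arg1 are widely used as marks of tissue-resident and alternatively activated macrophages. They were taken by gene symbol, without regard to their values, and all 10 were found among the 32285 genes of the count tables. Nuclei from aortic tissues of mice were sequenced in 4 droplet libraries, with 1 library for each group. Every group, the untreated one included, carried the same genotype, CA1 knockin ApoE-/-: a knock-in of carbonic anhydrase 1, an enzyme that interconverts carbon dioxide and bicarbonate, on an ApoE-deficient background that makes mice prone to atherosclerosis. The MTZ-after group ate high-fat food and received methoxazolamide (MTZ, described by the submitters as an inhibitor of CA1) once atherosclerosis was established. The MTZ-simultaneous group received methoxazolamide along with high-fat food, the high-fat group received the food alone, and the untreated group is labelled as having had no treatment. The age, sex and number of animals behind a library, and the promoter of the knock-in, were not given in the sources used here.

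Resident macrophages settle in the adventitia and in the fat and connective tissue around vessels, where they clear debris through scavenger and lectin receptors. Alternative activation is the programme that the cytokines interleukin-4 and interleukin-13 start through the transcription factor STAT6, and Retnla, Arg1, Mrc1 and Clec10a are classic targets of it in mouse macrophages. In atherosclerotic plaques most macrophages are instead lipid-laden foam cells, which express genes of lipid handling such as Spp1, Trem2 and Gpnmb.

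With 1 library for each group there was no replicate, so no difference was tested and no p-value is given. Intervals below are 95% intervals of counting error alone. After filtering, 25992 MTZ-after, 17848 MTZ-simultaneous, 35104 high-fat and 20772 untreated nuclei were kept, with medians of 825.5, 1427, 953 and 2033 unique molecular identifiers (UMIs) per nucleus in that order of groups. Between 119 and 376 cell barcodes were shared by any pair of libraries, 0.531 to 1.34% of a library. The tissue pieces differed: brown adipocyte-like nuclei were 33.4% of untreated nuclei and 0.766 to 3.82% of the others, adrenal cortex-like and hepatocyte-like nuclei made up 16.5% and 3.40% of the MTZ-after library, and mesothelial-like nuclei made up 15.2% of the MTZ-simultaneous library. An unnamed cluster led by Slc5a12 and Slc34a1 made up 11.9% of MTZ-after, 5.82% of MTZ-simultaneous, 2.38% of high-fat and 7.75% of untreated nuclei. In a sum over a whole library, fewer cells of a type and less RNA per cell cannot be told apart.

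Myeloid nuclei were clustered without the 10 genes, and levels are given in CPM, the UMI counts of a gene per 1000000 UMIs of the same nuclei. With the 10 genes left out of the ranking, Gfra2 and Mgl2 led a sub-cluster of 695 nuclei against the other myeloid nuclei. This Gfra2 Mgl2 sub-cluster had 12 of 17 macrophage markers at least 2-fold above other classes. Against all other classes it was led by F13a1, Cd163, Mrc1 and Clec10a, 4 of the genes described here, then by Rbpj, Mgl2 and the monocyte marker Ccr2. None of the 17 macrophage markers was among those leading 10, so it is given no cell type name here. The marker rule did name it macrophage, and on that name it entered the pooled macrophage-like class below. Another 6 sub-clusters were named foamy by the marker rule and are called foamy macrophage-like. They had 5 to 10 of 10 foam cell markers, a list that includes St18, Atp6v0d2 and Gpnmb, at least 2-fold above other classes. These 6 held 1233 MTZ-after, 1061 MTZ-simultaneous, 7223 high-fat and 871 untreated nuclei. Sub-clusters of 1456, 109 and 141 nuclei also had 8, 8 and 7 of these markers up. They were left unnamed, or named proliferating for the 141, and count as other myeloid nuclei. Of the 1456 nuclei, 1037 were high-fat. T- or NK-like nuclei, which should lack the 10 genes, served as a measure of free RNA, and free RNA below means their level. They held 383, 322, 386 and 595 nuclei in the same order, with median depths of 785, 1090, 872 and 1456 UMIs. A few nuclei with at least 5 UMIs weigh on this measure. In MTZ-simultaneous 2 of them held 28 of 63 F13a1 counts. In untreated 3 held 38 of 128 F13a1 counts, and 2 held 26 of 92 Mrc1 counts. The level is thus not one of free RNA alone.

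Promoters are shown for the genes that carried the patterns below: F13a1 and Mrc1, which shared the Gfra2 Mgl2 sub-cluster, and Retnla, which departed from them. Each window is 300 bases of RefSeq sequence (GRCm38.p6), from 250 bases before the transcription start to 50 after it, so that it ends in the first exon, and it is printed 5′ to 3′ on the strand of the gene. Windows were held for 7 of the 10 genes, namely Cd163, F13a1, Mrc1, Folr2, Cbr2, Pf4 and Retnla; Lyve1, Clec10a and Arg1 had none in the table. F13a1 and Folr2 each had a second window at a later start, and the upstream one of F13a1 is shown. The F13a1 window is chr13:37050195-37050494 on the minus strand, the Mrc1 window is chr2:14229164-14229463 on the plus strand and the Retnla window is chr16:48842359-48842658 on the plus strand. Capitals mark matches to 3 motifs, searched on both strands: a STAT6-type site, which opens with TTC and, after 4 bases of any kind, closes with GAA; the PU.1 core, bound by the lineage factor of macrophages and spelled GAGGAA; and the TATA box, here the letters TATAAA. A match on the opposite strand appears as the reverse complement. No match to one motif overlapped a match to another in these 3 windows.
F13a1: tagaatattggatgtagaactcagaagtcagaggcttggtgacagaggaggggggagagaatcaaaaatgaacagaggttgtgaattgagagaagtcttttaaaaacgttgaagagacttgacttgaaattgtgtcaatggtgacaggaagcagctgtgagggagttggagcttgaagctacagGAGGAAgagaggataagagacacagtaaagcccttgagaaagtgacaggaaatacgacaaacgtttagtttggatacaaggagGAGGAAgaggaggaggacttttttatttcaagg
Mrc1: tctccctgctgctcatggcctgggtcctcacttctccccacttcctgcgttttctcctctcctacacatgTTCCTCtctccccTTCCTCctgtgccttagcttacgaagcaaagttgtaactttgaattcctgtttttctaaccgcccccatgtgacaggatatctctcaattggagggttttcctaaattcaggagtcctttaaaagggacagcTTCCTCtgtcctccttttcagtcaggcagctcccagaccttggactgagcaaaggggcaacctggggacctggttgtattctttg
Retnla: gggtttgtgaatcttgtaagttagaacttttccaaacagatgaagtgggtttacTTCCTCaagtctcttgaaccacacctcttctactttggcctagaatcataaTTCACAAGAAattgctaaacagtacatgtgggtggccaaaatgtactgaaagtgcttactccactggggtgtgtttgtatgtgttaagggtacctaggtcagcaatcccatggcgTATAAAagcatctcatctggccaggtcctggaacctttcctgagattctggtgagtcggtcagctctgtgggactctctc
The F13a1 window held 2 PU.1-type matches, the Mrc1 window 3 and the Retnla window 1, while 28.3% of 32851 mouse promoter windows held at least 1 on either strand. The Retnla window also held a STAT6-type match, TTCACAAGAA, and a TATA box; 6.95% and 13.6% of all windows held these. The Cbr2 window was the other one among the 7 genes with a STAT6-type match. The Cd163 window, and both Folr2 windows, held no match to any of the 3 motifs. The Cbr2, Pf4 and later F13a1 windows held 1 PU.1-type match each. These matches describe letters in a window and say nothing of binding in these nuclei.

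Cd163, the scavenger receptor for haemoglobin bound to haptoglobin, F13a1, the catalytic subunit of coagulation factor XIII, Mrc1, the mannose receptor CD206, and Clec10a, a galactose-binding lectin receptor, were concentrated in the Gfra2 Mgl2 sub-cluster in every library. F13a1 reached 1995 CPM in MTZ-after, 2046 in MTZ-simultaneous, 2691 in high-fat and 3174 in untreated nuclei of this sub-cluster. In T- or NK-like nuclei it stood at 102 CPM in MTZ-after, 131 in MTZ-simultaneous, 107 in high-fat and 107 in untreated. The level of F13a1 in the sub-cluster was thus 15.6- to 29.7-fold that of the free RNA, and the intervals of the 2 kinds of nuclei did not overlap in any library. Mrc1 stood at 1907 CPM in MTZ-after, 1303 in MTZ-simultaneous, 1733 in high-fat and 2462 in untreated nuclei of the sub-cluster, 16.1- to 32.0-fold the T- or NK-like level. Cd163 stood at 234 CPM in MTZ-after, 264 in MTZ-simultaneous, 368 in high-fat and 467 in untreated nuclei. Untreated nuclei were the highest and MTZ-after nuclei the lowest for both F13a1 and Cd163, whereas the lowest level of Mrc1 was that of MTZ-simultaneous. Clec10a was not confined to the sub-cluster, where it stood at 375 CPM in untreated and 390.3 in MTZ-simultaneous nuclei. Dendritic-like nuclei, named from a marker list, had 126 CPM in untreated and 163 in MTZ-simultaneous, from 30 and 12 counts. These levels were 10.1 and 5.57 times the T- or NK-like ones. In MTZ-after and high-fat, dendritic-like nuclei had 63.4 and 35.1 CPM of Clec10a, from 3 and 5 counts only.

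At equal depth untreated nuclei stayed the highest for F13a1, Mrc1 and Cd163, while MTZ-simultaneous was the lowest for all 3. After each nucleus was thinned to 500 UMIs, 51.7% of MTZ-after, 44.4% of MTZ-simultaneous, 54.5% of high-fat and 60.7% of untreated nuclei in the Gfra2 Mgl2 sub-cluster held an F13a1 UMI, against 6.01, 5.28, 6.22 and 4.87% of T- or NK-like nuclei. Without thinning the shares were 58.0, 58.9, 67.3 and 76.1%, with median depths of 809, 1098.5, 1005 and 1941 UMIs. For Mrc1 the thinned shares were 47.6% in MTZ-after, 39.5% in MTZ-simultaneous, 40.9% in high-fat and 60.4% in untreated nuclei. The interval of the untreated share of Mrc1, 54.8 to 65.8%, lay above those of MTZ-simultaneous (30.9 to 48.7%) and high-fat (31.6 to 50.7%). For Cd163 they were 9.79% in MTZ-after, 8.87% in MTZ-simultaneous, 12.7% in high-fat and 17.3% in untreated nuclei, with overlapping intervals. Nuclei with UMIs of at least 3 of the 10 genes after thinning made up 13.3% of MTZ-after, 14.5% of MTZ-simultaneous, 11.8% of high-fat and 24.5% of untreated nuclei of the sub-cluster, against 0 to 1.04% of T- or NK-like nuclei, so the genes were found together in single nuclei and not only in the sum.

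**Figure D1:**
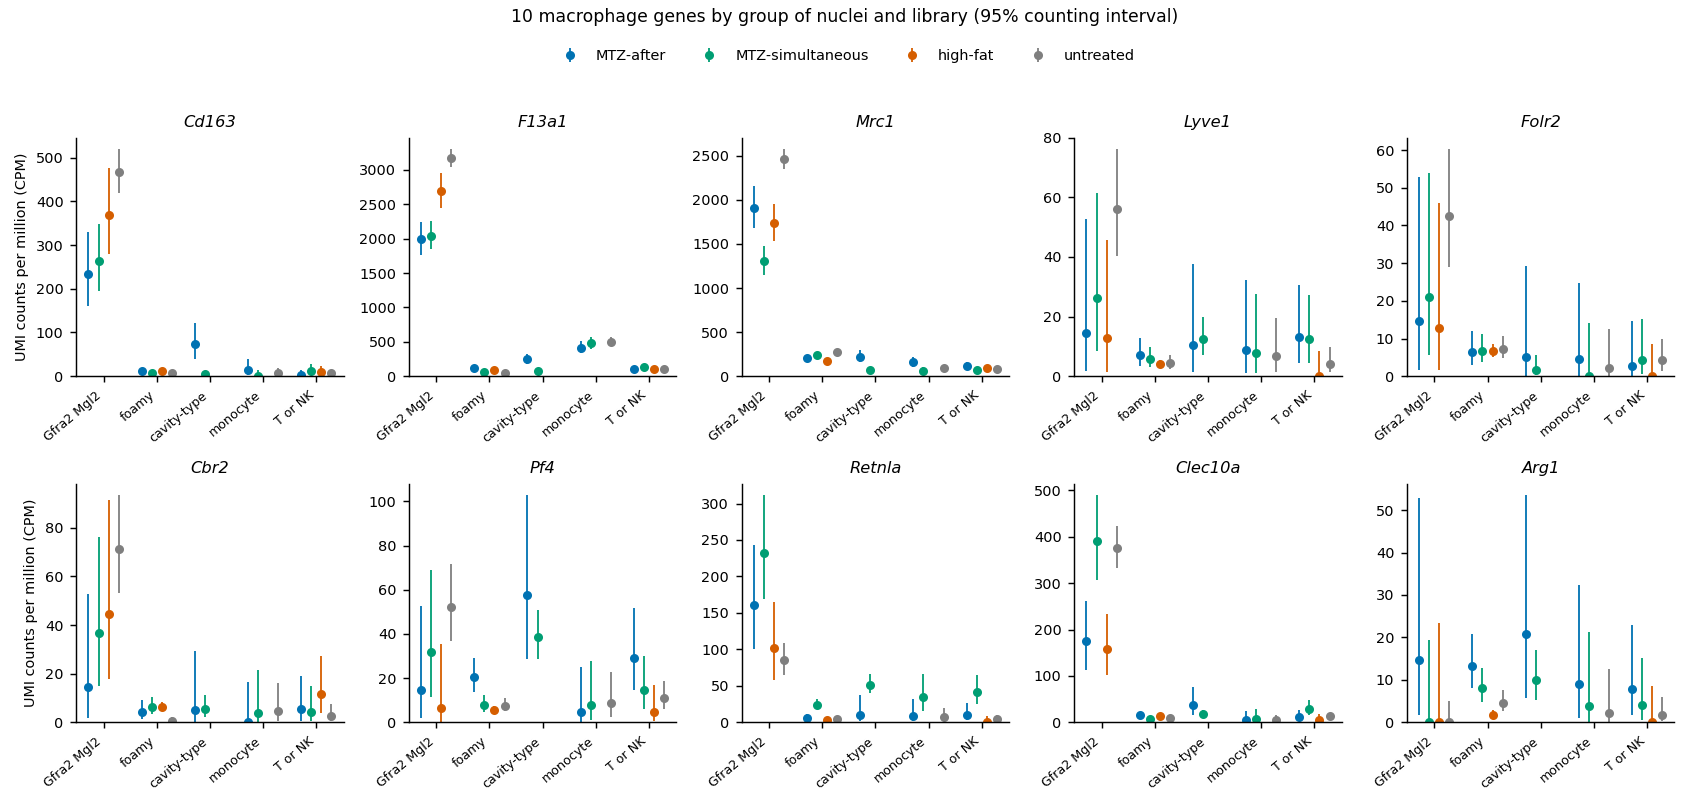
Level of each gene (vertical axis, CPM; a separate linear scale for each gene) in 5 kinds of nuclei along the horizontal axis, with 1 coloured point for each library and lines for the 95% counting interval. Cd163, F13a1, Mrc1 and Clec10a stand high in the Gfra2 Mgl2 sub-cluster in all 4 libraries, while foamy nuclei lie near the T- or NK-like level for Cd163, F13a1 and Clec10a.

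Foamy macrophage-like nuclei, by far the larger myeloid population of the high-fat library, held little more of most of these genes than free RNA did. F13a1 stood at 115 CPM in MTZ-after, 54.2 in MTZ-simultaneous, 93.8 in high-fat and 49.5 in untreated foamy nuclei, which is 1.12, 0.412, 0.877 and 0.463 times the T- or NK-like level in the same order. Cd163 ranged from 6.27 to 11.7 CPM over the 4 libraries and Clec10a from 7.17 to 14.7 CPM. Mrc1 was the exception: it stood at 203 CPM in MTZ-after, 236 in MTZ-simultaneous, 178 in high-fat and 275 in untreated foamy nuclei, 1.72 to 3.57 times the T- or NK-like level. Foamy nuclei therefore carried Mrc1 above free RNA in all 4 libraries, at a level far under that of the Gfra2 Mgl2 sub-cluster. Between libraries, foamy nuclei had 1 of 5 genes higher (Cbr2) and 0 lower for high-fat over untreated, beside 12.5% and 0.713% of all genes. They had 0 of 5 higher and 0 lower for MTZ-after over high-fat, beside 1.07% and 3.13%, and 1 of 6 higher (Retnla) and 0 lower for MTZ-simultaneous over high-fat, beside 0.729% and 3.29%. F13a1 was also above free RNA in monocyte-like nuclei, at 415 CPM in MTZ-after, 476 in MTZ-simultaneous and 499 in untreated nuclei.

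The share of Gfra2 Mgl2 nuclei differed between libraries. They made up 0.550% of kept nuclei in MTZ-after, 0.695% in MTZ-simultaneous, 0.313% in high-fat and 1.53% in untreated. The share in high-fat was 0.205 times that in untreated; the share in MTZ-after was 1.76 times and that in MTZ-simultaneous 2.22 times that in high-fat. A count that needs no clusters gave the same order: nuclei with at least 3 F13a1 UMIs after thinning to 500 were 0.208% of MTZ-after (interval 0.156 to 0.271%), 0.241% of MTZ-simultaneous (0.174 to 0.324%), 0.120% of high-fat (0.0862 to 0.162%) and 0.505% of untreated nuclei (0.414 to 0.612%). Untreated stood above the other 3 libraries, and the intervals of high-fat and MTZ-after overlapped. Of these nuclei, 20 of 54 in MTZ-after, 16 of 43 in MTZ-simultaneous, 12 of 42 in high-fat and 68 of 105 in untreated lay in the Gfra2 Mgl2 sub-cluster. With the named classes of surrounding tissue left out, the ratio of the shares was 0.125 for high-fat over untreated. For MTZ-after over high-fat it was 2.49. These classes included brown adipocyte, adrenal and hepatocyte, while unnamed clusters stayed in, among them the one led by Slc5a12 and Slc34a1. Under stricter filters the ratios were 0.404 and 1.09, in a matched sub-cluster of which 46.4% were nuclei of the Gfra2 Mgl2 one. With another clustering seed they were 0.142 and 1.19, so the MTZ-after share was close to that of high-fat in both settings. Diet, treatment and the tissue that each piece held cannot be told apart.

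**Figure D2:**
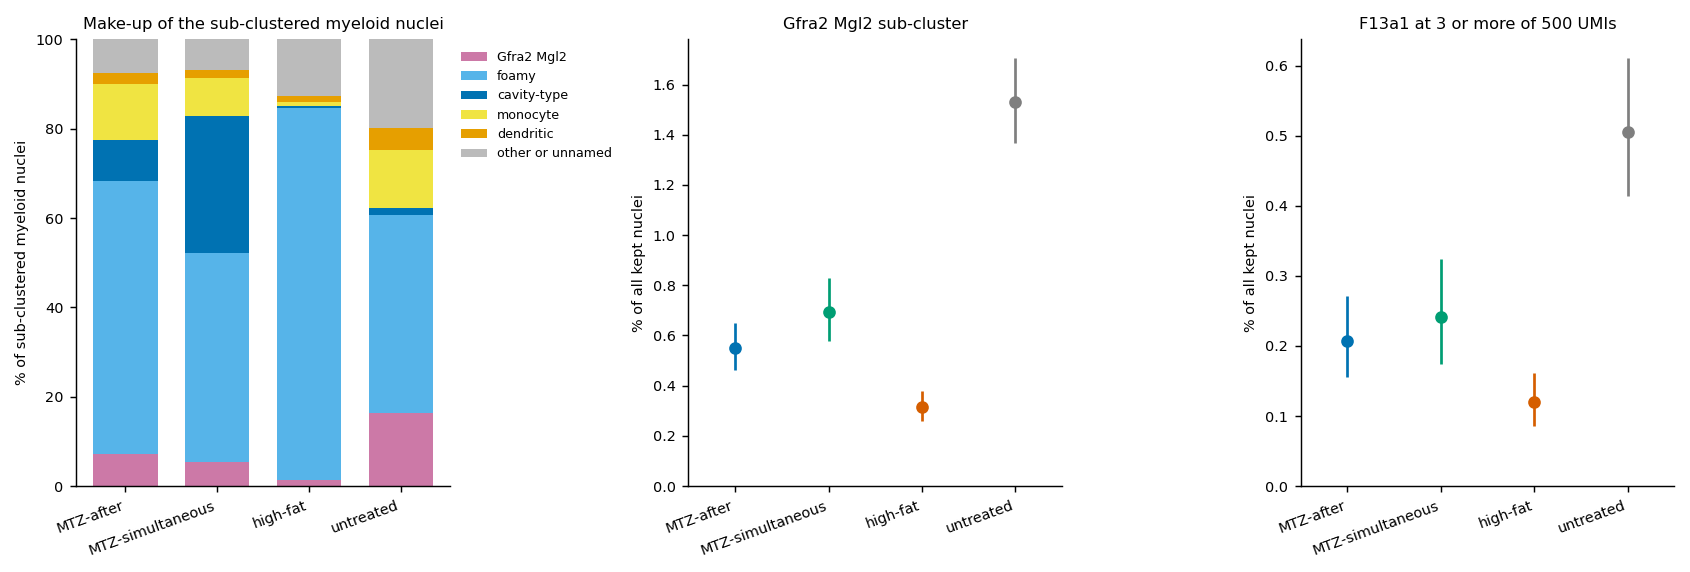
Left, the make-up of the sub-clustered myeloid nuclei of each library in percent; middle, Gfra2 Mgl2 nuclei, and right, nuclei with at least 3 F13a1 UMIs after thinning to 500 UMIs, both in percent of all kept nuclei, with 95% counting intervals as lines. High-fat has the lowest and untreated the highest share in the middle and right panels, and foamy nuclei fill most of the high-fat bar.

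Within the Gfra2 Mgl2 sub-cluster the high-fat and untreated libraries differed by less than 2-fold for most of the 5 genes with enough counts. F13a1 in high-fat was 0.848 times untreated (interval 0.763 to 0.941), Mrc1 0.704 times (0.617 to 0.80) and Cd163 0.788 times (0.586 to 1.04). Clec10a was the only one of the 5 genes with enough counts (at least 50 in the higher library) that passed 2-fold: it stood at 159 CPM in high-fat nuclei, against 375 CPM in untreated nuclei, a ratio of 0.423 (0.269 to 0.637). That is 1 of 5 lower, beside 6.21% of all genes lower by the same rule in these nuclei; 0 of 5 were higher, beside 0.963%. The median log2 ratio was -0.51 for these 5 genes and -0.26 for all genes. Counts of Lyve1, Folr2, Cbr2 and Pf4 in high-fat nuclei of the sub-cluster were 7 or fewer, so their ratios rest on little. Each was lower in high-fat than in untreated nuclei. Lyve1 stood at 12.7 against 56.2 CPM, Folr2 at 12.7 against 42.5, Cbr2 at 44.4 against 71.2 and Pf4 at 6.35 against 52.1.

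For MTZ-after over high-fat 0 of 3 genes with enough counts passed 2-fold in this sub-cluster, beside 2% of all genes higher and 1.85% lower. MTZ-after over high-fat was 0.741 for F13a1 (interval 0.634 to 0.865), 0.635 for Cd163 (0.399 to 0.995) and 1.10 for Mrc1 (0.925 to 1.31). For MTZ-simultaneous over high-fat, F13a1 stood at 0.760 (0.661 to 0.875) and Mrc1 at 0.752 (0.630 to 0.896). Clec10a was higher, with 390.3 CPM in MTZ-simultaneous nuclei, against 159 CPM in high-fat nuclei, a ratio of 2.46 (1.54 to 4.04), and was the 1 of 4 genes past 2-fold beside 2.24% of all genes; 0 were lower, beside 2.36%. Clec10a was thus lower in high-fat than in MTZ-simultaneous and in untreated nuclei, while MTZ-after, at 175 CPM, lay close to high-fat. The high-fat library is shared by all 3 comparisons, and its 25 Clec10a counts enter each of them; reads of Clec10a can also be split with its close paralog Mgl2.

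Over all sub-clustered myeloid nuclei, 7 of 9 genes were at least 2-fold lower in high-fat than in untreated, beside 1.81% of all genes, and 0 were higher, beside 7.45%. Cd163 stood at 16.1 CPM in high-fat, against 65.8 CPM in untreated, a ratio of 0.244. F13a1 had a ratio of 0.260, Retnla 0.261, Clec10a 0.311, Lyve1 0.364, Mrc1 0.375 and Pf4 0.399, while Folr2 at 0.603 and Cbr2 at 0.670 did not pass. A pair of unnamed clusters whose leading genes included macrophage genes (St18 and Ms4a7 in one, Spp1, C1qa and Lyz2 in the other) lay outside this set of 2012 MTZ-after, 2271 MTZ-simultaneous, 8673 high-fat and 1957 untreated nuclei. With them it held 3862 MTZ-after, 3975 MTZ-simultaneous, 24333 high-fat and 2434 untreated nuclei, so the nuclei left out were mostly high-fat. In that larger set, an alternative chosen after the data were seen, 8 of 9 genes were lower in high-fat, beside 2.81% of all genes, and 0 higher, beside 12.2%. The mix of nuclei was then set apart from the levels. With the levels of the untreated library and only the mix of Gfra2 Mgl2, foamy and other myeloid nuclei taken from high-fat, F13a1 came to 0.263 and Cd163 to 0.227 of untreated. At an equal mix the ratio of F13a1 was 0.991, that of Cd163 1.07 and that of Clec10a 1.12, whereas Mrc1 stayed at 0.688. These values weigh the nuclei by the high-fat mix and average opposite differences: F13a1, Cd163 and Clec10a were at 0.848, 0.788 and 0.423 in the Gfra2 Mgl2 sub-cluster, and at 1.90, 1.55 and 1.64 in foamy nuclei, where their levels were near those of free RNA. Gfra2 Mgl2 nuclei held 1.24% of the UMIs of these myeloid nuclei in high-fat, against 12.2% in untreated. The pooled macrophage-like class, which is the Gfra2 Mgl2 and foamy nuclei together, also had 7 of 9 genes lower, beside 1.08% of all genes, and 0 higher, beside 10.9%. Clustered under stricter filters or at resolution 2 this class had 0 lower and 4 or 2 higher. F13a1 was then at 2.43 and 2.51 and Clec10a at 2.35 and 2.88. In both clusterings the class held foamy sub-clusters only, as no sub-cluster led by Gfra2 and Mgl2 was named into it.

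For MTZ-after over high-fat in all sub-clustered myeloid nuclei, F13a1 was the 1 of 6 genes past 2-fold, beside 2.27% of all genes; 0 were lower, beside 2.24%. It stood at 279 CPM in MTZ-after, against 126 CPM in high-fat, a ratio of 2.22 (interval 2.02 to 2.43). Cd163 had 30.6 CPM in MTZ-after and 16.1 CPM in high-fat, a ratio of 1.91 that fell short of 2-fold. At an equal mix of nuclei the ratios were 1.10 for F13a1 and 0.911 for Cd163, both near 1. For MTZ-simultaneous over high-fat 2 of 8 genes passed upward, beside 2.64% of all genes, and 0 downward, beside 1.73%: Retnla with a ratio of 11.2 (8.15 to 15.6) and Pf4 with 3.32 (2.39 to 4.62). Cavity-type macrophage-like nuclei, named from a marker list of body-cavity macrophages, numbered 697 in MTZ-simultaneous and 39 in high-fat; they held 67 of 192 Retnla counts and 50 of 82 Pf4 counts of the MTZ-simultaneous set, against 0 of 50 and 2 of 72 in high-fat. F13a1 stood at 182 CPM in MTZ-simultaneous. With the unnamed pair of clusters added, 2 of 5 genes were higher in MTZ-after (F13a1 at 2.05 and Pf4 at 4.52), beside 3.06% of all genes, and 3 of 8 in MTZ-simultaneous (Retnla, Pf4 and Lyve1), beside 2.98%; 0 were lower in either, beside 1.83% and 2.44%. In the pooled macrophage-like class 1 of 3 genes was higher in MTZ-after than in high-fat (F13a1, ratio 2.07), beside 1.33% of all genes, and 2 of 5 in MTZ-simultaneous (Clec10a at 2.37 and Retnla at 8.89), beside 0.8%; 0 were lower in either, beside 2.82% and 2.96%. The F13a1 call was lost without doublet removal, with another seed and at resolution 2, where its ratio was 0.692. In MTZ-simultaneous, Retnla and Clec10a stood at 0.969 and 1.27 times their T- or NK-like level in this class; with that background taken off, their ratios turned to 0.272 and 0.720, and after thinning or at resolution 2 no gene was called.

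**Figure D3:**
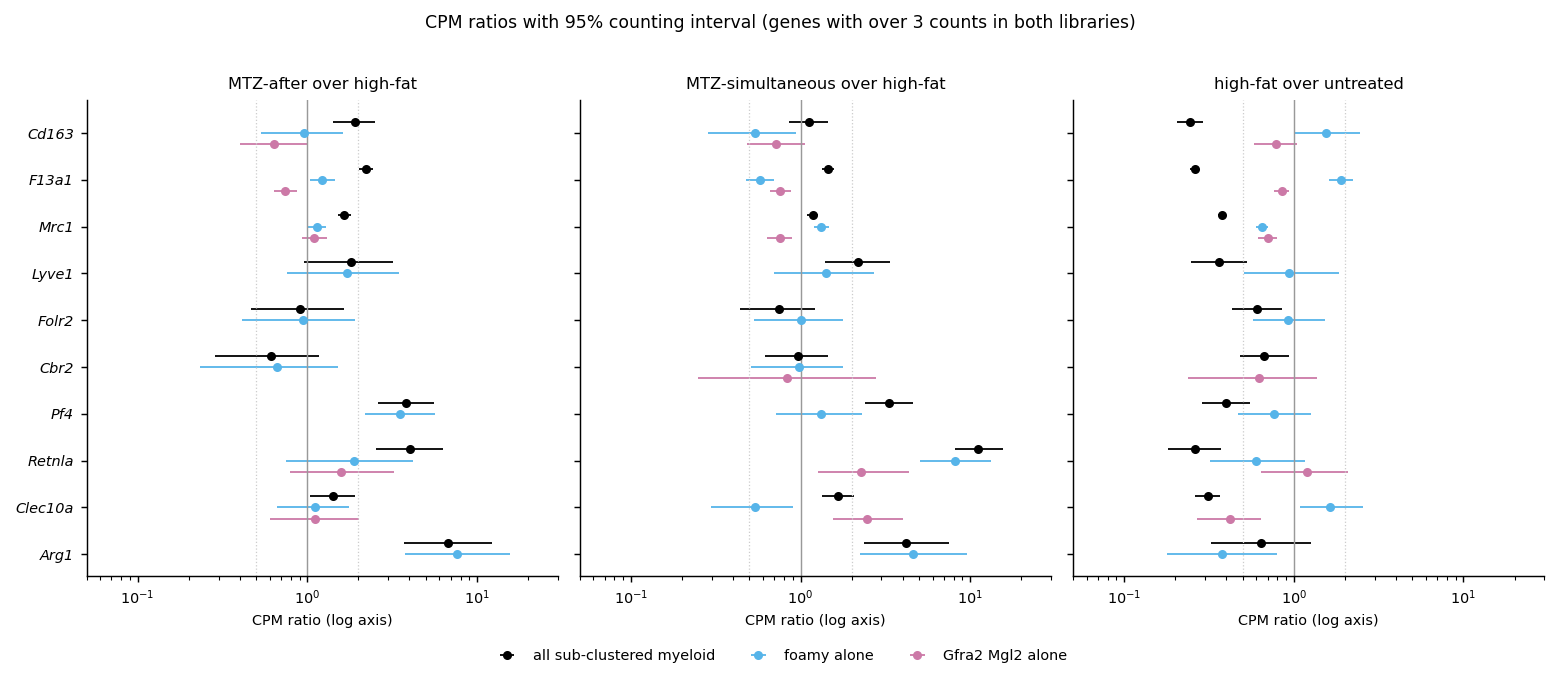
Ratio of CPM between libraries (horizontal log axis) for each gene, with 95% counting intervals; black is all sub-clustered myeloid nuclei, light blue the foamy nuclei alone and pink the Gfra2 Mgl2 sub-cluster alone, and dotted lines mark 2-fold. For high-fat over untreated the black points of F13a1 (0.260) and Cd163 (0.244) lie far left of the pink ones (0.848 and 0.788).

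Retnla, a secreted resistin-like protein that alternatively activated macrophages release, followed another course. Its CPM over all kept nuclei was 9.30 in MTZ-after, 45.5 in MTZ-simultaneous, 3.09 in high-fat and 5.28 in untreated. MTZ-simultaneous stood apart, at 14.7 times high-fat (interval 12.4 to 17.6), and MTZ-after was 3.01 times high-fat (2.45 to 3.72). In the Gfra2 Mgl2 sub-cluster Retnla had 161 CPM in MTZ-after, 232 in MTZ-simultaneous, 102 in high-fat and 84.9 in untreated nuclei, and the ratio of MTZ-simultaneous over high-fat was 2.29 (1.26 to 4.34) from 44 and 16 counts. In T- or NK-like nuclei it stood at 10.5 CPM in MTZ-after, 41.7 in MTZ-simultaneous, 0 in high-fat, where a count of 0 allows up to 6.97 CPM, and 4.17 in untreated, so the free RNA moved with the group. In foamy nuclei the MTZ-simultaneous level of 24.2 CPM was 8.12 times that of high-fat (5.08 to 13.2), and 0.580 times its own T- or NK-like level (0.341 to 1.02).

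The largest group of Retnla UMIs in MTZ-simultaneous lay outside the named myeloid classes. The mesothelial-like class held 38.1% of the library's Retnla counts and 13.1% of its UMIs, at 132 CPM, against 3.42 CPM in mesothelial-like nuclei of MTZ-after and 2.57 CPM in those of untreated. A few nuclei carried this level. Nuclei with at least 5 Retnla UMIs, a threshold set after the values were seen, numbered 0 in MTZ-after, 27 in MTZ-simultaneous, 0 in high-fat and 1 in untreated. The 27 nuclei held 467 of 1623 Retnla counts of their library (28.8%), the highest had 81 UMIs, and the rest of the library stood at 32.5 CPM. Of the 27, 23 were in the mesothelial-like class, with a median depth of 1324 UMIs, against 1278.5 in the other 2698 nuclei of that class. These 23 held 432 of the 619 Retnla counts of the class, and the other 2698 stood at 40.4 CPM, close to the 41.7 CPM of T- or NK-like nuclei of that library. With another clustering seed, 22 nuclei led by Retnla, Cd74 and H2-Ab1 formed a myeloid sub-cluster of their own, so the level of the class depends on where they fall. The 23 nuclei were led, after Retnla itself, by the antigen presentation genes Cd74, at 4532 CPM against 71.3 CPM in the others, H2-Ab1, H2-Aa and H2-Eb1. Mrc1 had 1923 CPM in these 23 nuclei and 70.6 CPM in the others, and F13a1 1350 and 65.0 CPM. Macrophage markers were present for 15 of 17 genes and summed to 8697 CPM in the 23 nuclei, against 1314 CPM in the others, and mesothelial markers to 1099 and 2000 CPM; what this mixture is was not tested. At equal depth, with at least 3 Retnla UMIs among 500, 16 nuclei of MTZ-simultaneous and 2 of untreated were found, and all 16 were in the mesothelial-like class.

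**Figure D4:**
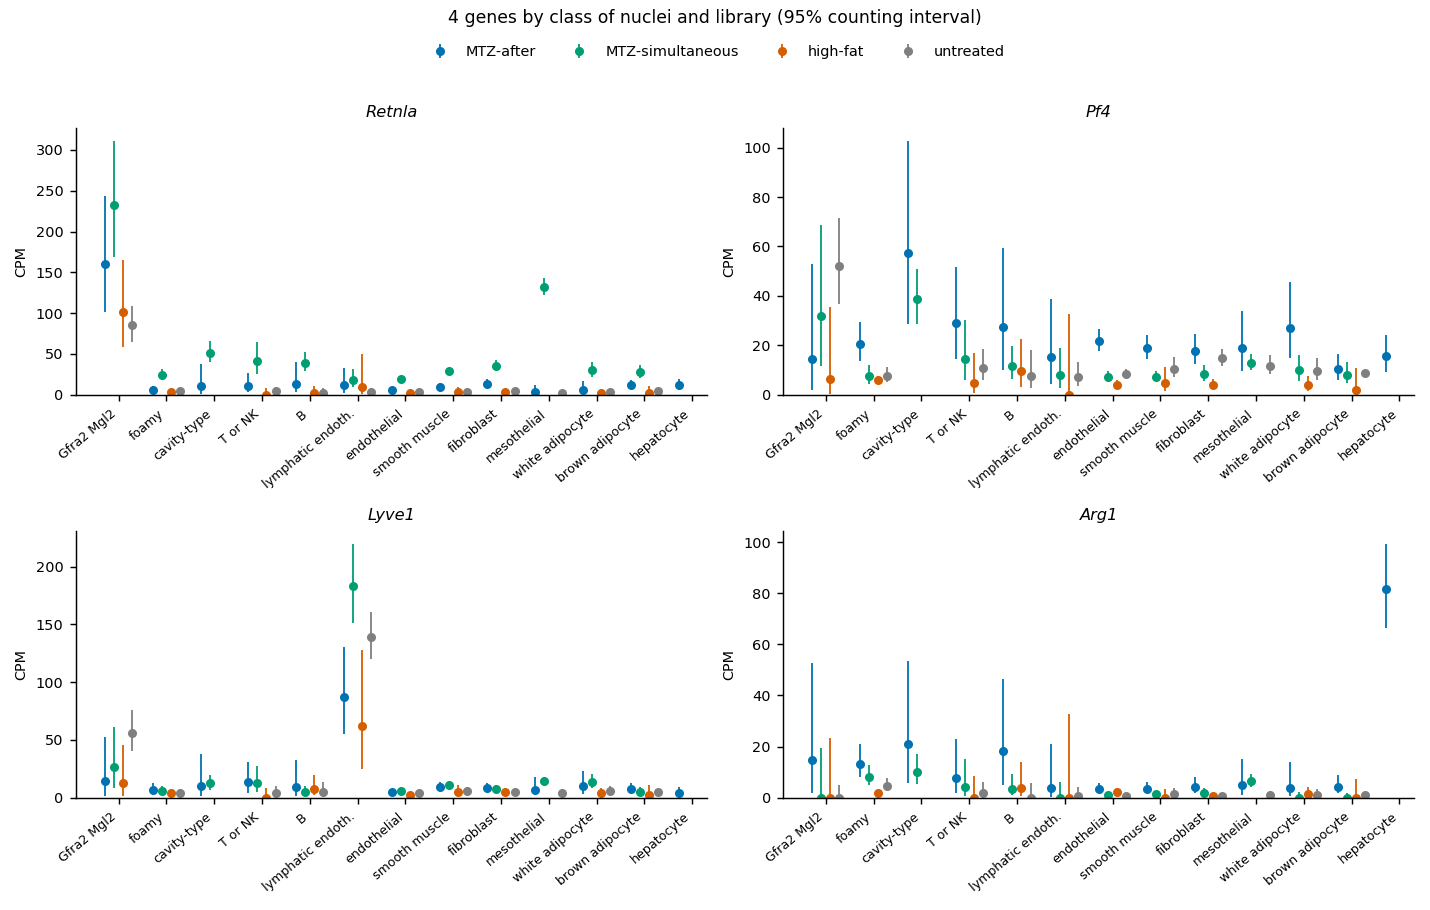
Level in CPM (linear vertical axes) of Retnla, Pf4, Lyve1 and Arg1 in 13 kinds of nuclei, with 1 coloured point for each library that held enough nuclei and 95% counting intervals. Retnla is highest in MTZ-simultaneous in each kind of nuclei with a point for that library, Lyve1 is highest in lymphatic endothelial nuclei, and Arg1 reaches 81.7 CPM in the hepatocyte nuclei of MTZ-after.

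Pf4, the chemokine platelet factor 4 of megakaryocytes and of some macrophages, had 19.2 CPM in MTZ-after, 10.8 in MTZ-simultaneous, 5.09 in high-fat and 10.7 in untreated over all kept nuclei. It was 0.474 times untreated in high-fat (interval 0.407 to 0.550), and 3.78 times (3.24 to 4.42) and 2.12 times (1.79 to 2.50) high-fat in MTZ-after and MTZ-simultaneous. High-fat was the lowest library, but the gene was not confined to myeloid nuclei. T- or NK-like nuclei held 28.9 CPM in MTZ-after, 14.6 in MTZ-simultaneous, 4.65 in high-fat and 10.9 in untreated, and the summed platelet markers were 58.2, 14.9, 15.4 and 16.8 CPM over all kept nuclei, with all 7 of 7 markers detected in each library. In cavity-type macrophage-like nuclei Pf4 stood at 57.5 CPM in MTZ-after and 38.5 CPM in MTZ-simultaneous, above the 20.4 and 7.62 CPM of foamy nuclei of the same libraries. The platelet marker Ppbp was also among the leading genes of the unnamed cluster led by Slc5a12 and Slc34a1, which was 11.9% of MTZ-after nuclei. The part of platelet RNA in these values was not tested.

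Lyve1, a hyaluronan receptor of lymphatic vessels and of perivascular macrophages, was highest in lymphatic endothelial-like nuclei in every library. Lymphatic endothelial-like nuclei had 86.7 CPM in MTZ-after, 183 in MTZ-simultaneous, 62.1 in high-fat and 139 in untreated, and held 9.79, 25.3, 3.80 and 35.8% of the Lyve1 counts with 0.907, 1.73, 0.245 and 2.13% of the UMIs. In the Gfra2 Mgl2 sub-cluster the levels were 14.6 CPM in MTZ-after, 26.4 in MTZ-simultaneous, 12.7 in high-fat and 56.2 in untreated, from 2, 5, 2 and 41 counts. The untreated level there was above its T- or NK-like level of 4.17 CPM, with intervals that did not overlap; in MTZ-after and MTZ-simultaneous the intervals overlapped. Over all kept nuclei Lyve1 had 8.04 CPM in MTZ-after, 12.5 in MTZ-simultaneous, 4.00 in high-fat and 8.31 in untreated. The ratio was 0.481 for high-fat over untreated (0.405 to 0.570), 2.01 for MTZ-after over high-fat (1.65 to 2.45) and 3.13 for MTZ-simultaneous over high-fat (2.63 to 3.73). Lymphatic endothelial-like nuclei were 0.989% of kept nuclei in MTZ-after, 1.84% in MTZ-simultaneous, 0.328% in high-fat and 2.52% in untreated, an order that the Lyve1 level of the library shared in part.

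Folr2, the folate receptor beta of resident macrophages, and Cbr2, a carbonyl reductase, were sparse. Folr2 had 2, 4, 2 and 31 counts in the Gfra2 Mgl2 nuclei of MTZ-after, MTZ-simultaneous, high-fat and untreated, which is 14.6, 21.1, 12.7 and 42.5 CPM. Cbr2 had 14.6 CPM in MTZ-after, 36.9 in MTZ-simultaneous, 44.4 in high-fat and 71.2 in untreated nuclei of the sub-cluster. Untreated was the highest for both, from the library with the most nuclei in this sub-cluster, 318, and the greatest median depth. In foamy nuclei Cbr2 had 62 counts in high-fat and 2 in untreated, a ratio of 10.9 whose interval ran from 2.91 to 92.4; with 12.5% of all genes past 2-fold there, nothing is read from it. In T- or NK-like nuclei of high-fat Cbr2 stood at 11.6 CPM, from 5 counts, against 6.37 CPM in foamy nuclei. The foamy level was 0.548 times the T- or NK-like one (interval 0.223 to 1.75), so it was not shown to exceed free RNA. Smooth muscle-like nuclei held 22.0% of Cbr2 counts in MTZ-after, 34.1% in MTZ-simultaneous, 3.67% in high-fat and 8.33% in untreated, with 11.8, 19.8, 2.28 and 4.39% of the UMIs.

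Arg1, the arginase that turns arginine into ornithine and urea, serves the urea cycle in liver as well as alternative activation. Over all kept nuclei it had 8.0 CPM in MTZ-after, 3.36 in MTZ-simultaneous, 1.41 in high-fat and 1.08 in untreated. It was 5.66 times high-fat in MTZ-after (interval 4.29 to 7.58) and 2.38 times in MTZ-simultaneous (1.75 to 3.27). The 883 hepatocyte-like nuclei of MTZ-after held 42.7% of its Arg1 counts with 4.18% of its UMIs, at 81.7 CPM, and the summed hepatocyte markers over all kept nuclei were 191 CPM in MTZ-after, 29.0 in MTZ-simultaneous, 13.5 in high-fat and 9.55 in untreated, with 8 of 8 markers detected except in untreated, where Cps1 was at 0. The order of the libraries was the same for Arg1 and for these liver markers. In the Gfra2 Mgl2 sub-cluster Arg1 had 2 counts in MTZ-after and 0 in MTZ-simultaneous, high-fat and untreated; a count of 0 allows up to 15.8, 19.0 and 4.11 CPM in these libraries. In foamy nuclei it stood at 13.3 CPM in MTZ-after, 8.06 in MTZ-simultaneous, 1.75 in high-fat and 4.65 in untreated, beside 7.88, 4.17, 0 and 1.67 CPM in T- or NK-like nuclei.

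Over all kept nuclei, then, 4 of 10 genes were at least 2-fold higher in MTZ-after than in high-fat (Arg1, Pf4, Retnla and Lyve1), beside 13.8% of all genes, and the same number in MTZ-simultaneous (Retnla, Lyve1, Arg1 and Pf4), beside 8.04%; 0 were lower in either, beside 2.57% and 2.41%. For high-fat over untreated 2 of 10 were lower (Lyve1 and Pf4), beside 7.35% of all genes, and 0 were higher, beside 6.53%. The remaining genes differed little in these sums: F13a1 had 129.8 CPM in MTZ-after, 96.2 in MTZ-simultaneous, 105 in high-fat and 118 in untreated, and Mrc1 118, 90.2, 129.6 and 102 CPM. Whole-library sums of F13a1, Mrc1, Cd163 and Clec10a thus did not show the contrast that the myeloid nuclei showed. The Gfra2 Mgl2 sub-cluster held 7.19% of F13a1 counts in MTZ-after, 11.3% in MTZ-simultaneous, 8.81% in high-fat and 30.3% in untreated, with 0.468, 0.532, 0.342 and 1.13% of the UMIs. In untreated, the brown adipocyte-like class held 45.1% of all UMIs and 25.7 to 44.3% of the counts of each of the 10 genes. Some of these nuclei carried many: 116 of them had at least 5 F13a1 UMIs. Their median depth was 8519 UMIs, against 2922 in the rest of the class, and a cut without thinning favours deep nuclei. Their F13a1 level, 886 against 49.1 CPM in the rest, is high by the way they were chosen. Cd163, on which they were not chosen, stood at 102 against 6.18 CPM. Summed macrophage markers were 1607 against 842 CPM, and summed brown adipocyte markers 1939 against 2483 CPM.

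**Figure D5:**
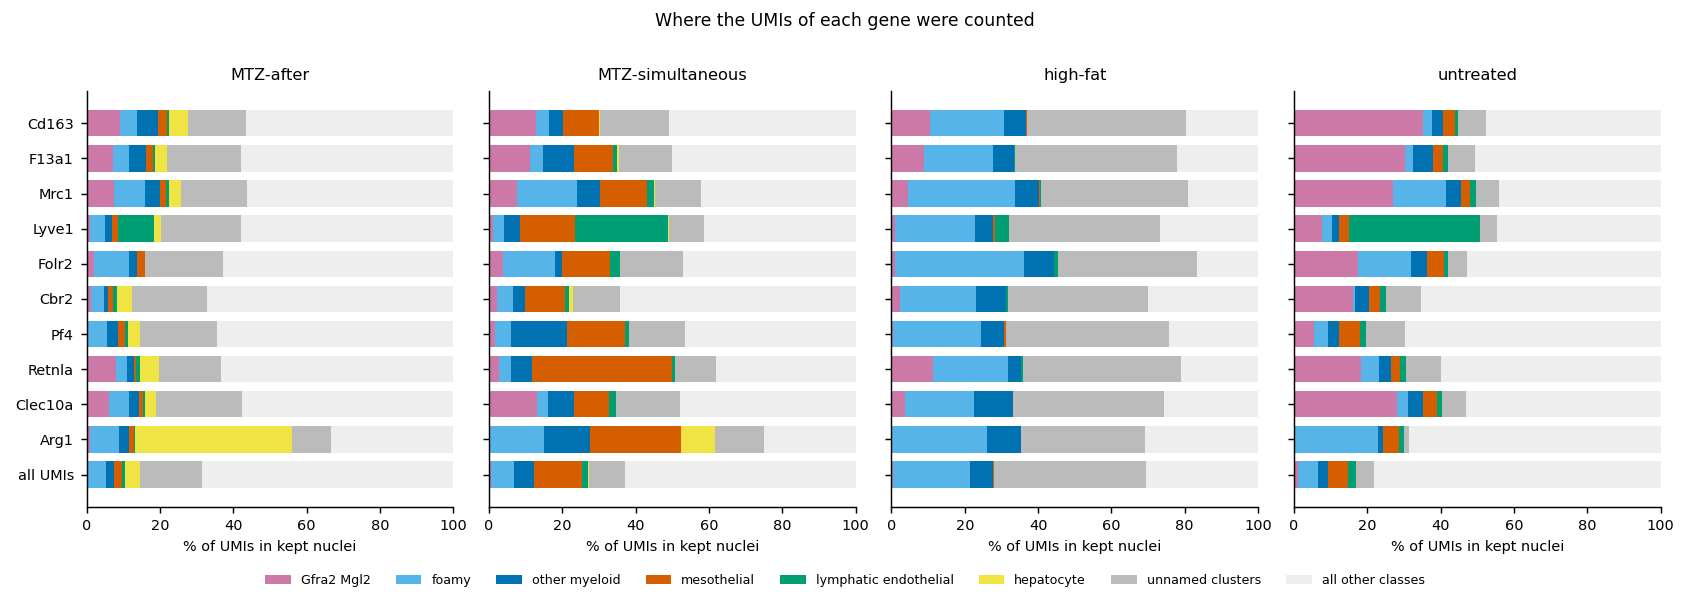
Share of each gene's UMIs in kept nuclei (horizontal axis, percent) counted in each kind of nuclei, with 1 panel for each library; the bottom bar gives the same shares for the UMIs of all genes. Gfra2 Mgl2 nuclei hold 30.3% of F13a1 in untreated and 8.81% in high-fat, lymphatic endothelial nuclei 25.3% of Lyve1 and mesothelial nuclei 38.1% of Retnla in MTZ-simultaneous, and hepatocyte nuclei 42.7% of Arg1 in MTZ-after.

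Genes whose level followed the 10 genes most closely were found over 97 groups of nuclei (a cluster in a library), as a description in which groups share libraries and depth. Cd163 was followed by Rbpj, a transcription factor of Notch signalling (Pearson r 0.77), and by F13a1 (0.74) and Clec10a (0.73). F13a1 was followed by the chemokine receptor gene Ccr2 (0.84), Rbpj and Skint3, and Clec10a by Cd163, Rbpj and Gfra2. Mrc1 was followed by Aoah (0.89), Ctsc and Tbxas1, Folr2 by Hrh1 (0.60), Ccl9 and Batf3, and Cbr2 by Fam118a (0.62), Hdac9 and Aqp9. The genes nearest to Lyve1 were Pard6g (0.67), Mmrn1 and Prox1, of which the last is the lineage factor of lymphatic endothelium. Those nearest to Pf4 were the adrenal steroid gene Star (0.62), mt-Nd1 and Elovl3, and those nearest to Retnla were Gm42418 (0.69), Lars2 and Nkain4. None of the 17 macrophage markers stood among the first 3 for any of the genes described here, Cd163 and Mrc1 included. Arg1 had under 500 counts and was not used.

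Other genes of the same biology were read in the same nuclei. Among 20 further resident macrophage genes, 18 had enough counts over all sub-clustered myeloid nuclei, and 5 were lower in high-fat than in untreated, beside 1.81% of all genes, with 0 higher, beside 7.45%: Cd209d, Cd209g and Cd209f, lectins of the family of DC-SIGN, Timd4, a receptor for dying cells, and Vsig4, a complement receptor. Cd209d stood at 0.941 CPM in high-fat, against 9.17 CPM in untreated, a ratio of 0.103 (interval 0.050 to 0.194), and Cd209g had a ratio of 0.140 (0.0765 to 0.245). The median log2 ratio of these 18 genes was -0.56, beside 0.10 for all genes. Of 17 tested genes of alternative activation 3 were lower (Mgl2, Irf4 and Alox15) and 0 higher, with a median of -0.26, and of 8 tested arginine genes 0 passed in either direction. Of 12 inflammatory genes 4 were lower in high-fat, Il1b, Ccr2, Cxcl2 and Nlrp3, so the lower genes were not confined to the resident and alternatively activated lists. Monocyte-like nuclei, led by genes that include Il1b, numbered 78 in high-fat and 253 in untreated, and neutrophil-like nuclei 1 and 73; their part in these values was not tested. Of 17 lipid-associated genes 1 was lower, Fabp5.

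For MTZ-after over high-fat in the same nuclei (2.27% of all genes higher, 2.24% lower), Ccr2 had a ratio of 2.96 (interval 2.54 to 3.43) and Il1b one of 2.77. Monocyte-like nuclei numbered 254 of 2012 in MTZ-after and 78 of 8673 in high-fat, and their part in these ratios was not tested. In the same comparison 1 of 13 tested genes of alternative activation was higher (Alox15), and 1 of 11 resident genes was lower (Ccl8, with an interval of 0.177 to 1.14). For MTZ-simultaneous over high-fat 5 of 15 resident genes were higher, namely Fcna, Ltc4s, Timd4, Vsig4 and Fgfr1, beside 2.64% of all genes, and 2 of 16 genes of alternative activation, Alox15 and Irf4. Of 12 inflammatory genes 3 were higher as well (Cxcl2, Ccr2 and Il1b), and 1 was lower (Ccl4), beside 1.73% of all genes lower. In macrophage-like nuclei 0 of 11 resident genes were higher for MTZ-simultaneous over high-fat. Alox15 stood at 140.2 CPM in MTZ-simultaneous, against 5.57 CPM in high-fat; it is also a marker of the cavity-type class, which held 697 nuclei of MTZ-simultaneous and 39 of high-fat. Spp1, osteopontin, was the 1 of 17 lipid-associated genes that was lower, at 2024 CPM in MTZ-simultaneous, against 5283 CPM in high-fat.

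In the Gfra2 Mgl2 sub-cluster the lipid-associated list stood out for high-fat over untreated, with 4 of 8 tested genes higher (Spp1, Gpnmb, Lpl and Lgals3) beside 0.963% of all genes. Spp1 had 1511 CPM in high-fat, against 282 CPM in untreated, a ratio of 5.35 (interval 4.42 to 6.48). T- or NK-like nuclei of the same libraries had 2250.3 CPM of Spp1 in high-fat and 420.0 CPM in untreated, a ratio of 5.36 (4.81 to 5.98). Gpnmb had a ratio of 3.64 in the sub-cluster and 4.42 in T- or NK-like nuclei, and Lgals3 2.25 and 2.26; Lpl had 2.35 and 0.913. The differences in Spp1, Gpnmb and Lgals3 were thus as large in nuclei that should lack these genes, and that of Lpl was not. Of 9 further resident genes tested in the sub-cluster 1 was lower in high-fat, Gas6, beside 6.21% of all genes, and of 5 genes of alternative activation 0 passed in either direction.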

How the data were processed

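The deposited values are whole-number UMI counts per gene and nucleus, 1 filtered matrix per library; the headers name Cell Ranger 7.0.1, per the file headers, and STAR and the mm10 build come from the submitters' processing notes. Libraries were made with the 10x 3' kit v3.1, per the labels' protocols. The sources used here do not state how intronic reads, or reads that match close copies of a gene, were treated.

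Nuclei with at least 300 genes and at most 10% mitochondrial counts were kept (23 to 98 per library failed). Scrublet (scanpy 1.11.5) set automatic thresholds that marked 0 to 0.00519% of nuclei, which is no working call, so the highest 8% of scores were removed in each library, ties kept (7.01 to 7.66%). Each nucleus was scaled to 10000 counts on a log scale; 2000 variable genes without the 10 genes, 30 principal components, 20 neighbours and Leiden clustering at resolution 1 gave 34 clusters, and myeloid ones were sub-clustered at resolution 0.5 into 14. Classes were named from marker lists when at least 3 markers and at least 50% of the list were 2-fold enriched. Libraries were not integrated.

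Counts were summed per library and kind of nuclei, since nuclei are not replicates, and divided by the sum over all genes (CPM). A gene was called at a ratio of at least 2 with at least 50 counts in the higher library. Intervals at 95% were exact Poisson, Clopper-Pearson and conditional ones, and cover counting error only; a count of 0 was read against a floor of 3 counts. The ratio interval and the 2-fold call were tested on simulated Poisson counts, and the other steps, such as clustering, naming and thinning, were not. All 10 genes are named; genes of other lists and genes alike in pattern were named by ratio bound or rank, and the remaining ones after their values were seen. The 10 genes and the lists were chosen with earlier results of these data known, and so were the class markers. The pooled macrophage-like class was planned as the basis of comparison; because the leading genes of one of its sub-clusters held a monocyte marker, its parts are given first. Alternatives were other filters, doublet removal, seed, resolution, TMM scaling (edgeR 4.0.16), equal weights, thinning, background and sub-clusters alone.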

Additional observations from a re-analysis of the deposited data

How the results depend on the processing

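No paired analysis was possible because each group was 1 library. Beside the planned settings, 4 were chosen after seeing the data: all sub-clustered myeloid nuclei, the same with the pair of unnamed clusters led in part by macrophage genes, the foamy sub-clusters alone, and all sub-clustered myeloid nuclei under stricter filters. The count of 7 genes lower in high-fat than in untreated macrophage-like nuclei was 0 under stricter filters, at resolution 2, in sub-clusters 0, 1 or 4 alone and in foamy nuclei alone, 1 in the Gfra2 Mgl2 sub-cluster alone and 4 after thinning; it was 6 to 9 under the other 10 settings. The count of genes higher, 0, was 4 under stricter filters, 2 at resolution 2 and 1 in foamy nuclei. Under stricter filters the pooled class changed its make-up, and over all sub-clustered myeloid nuclei the count lower was 8. For MTZ-after the 1 gene higher became 0 without doublet removal, with another seed, at resolution 2, in each sub-cluster alone and in foamy nuclei; it became 2 with background taken off, over all myeloid nuclei under stricter filters and with the unnamed clusters added, 3 with the 10 genes among the variable genes and 4 with no minimum count. For MTZ-simultaneous the 2 genes higher became 0 at resolution 2, after thinning and in sub-clusters 0 or 1, 1 under stricter filters, in the Gfra2 Mgl2 sub-cluster, in sub-cluster 4 and in foamy nuclei, and 4 without doublet removal and with the 10 genes among the variable genes; the 0 lower became 1 under stricter filters and in sub-cluster 0.

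The share of Gfra2 Mgl2 nuclei kept its direction in all 3 comparisons under the 6 settings run for it. In other clusterings the share was that of a matched sub-cluster, which held in part other nuclei. High-fat over untreated, 0.205, was 0.125 without the named surrounding tissue, 0.404 under stricter filters, 0.142 with another seed and 0.313 at resolution 2. MTZ-after over high-fat, 1.76, was 2.49, 1.09 and 1.19 under the first 3 of these. MTZ-simultaneous over high-fat, 2.22, was 3.54 without doublet removal. The sub-cluster held 355 to 1512 nuclei in the other clusterings, with 47.1 to 92.5% of its 695 nuclei in them. Nuclei of the 695 made up 46.4% of the matched sub-cluster under stricter filters and 42.5% at resolution 2. They made up 44.3% with the 10 genes among the variable genes, 57.4% without doublet removal and 92.1% with another seed. Under stricter filters its leading genes included Htr7, Flt3 and Ciita, which also led the dendritic-like sub-cluster. With another seed the ratio of 1.19 came from 44 MTZ-after and 50 high-fat nuclei.

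Single ratios turned round in 31 cases, all in the pooled macrophage-like class, and the sets of nuclei differ by construction. Under stricter filters the sub-cluster led by Gfra2 and Mgl2 was unnamed, and at resolution 2 no sub-cluster was named macrophage. The pooled class then held foamy sub-clusters only. The part of this in the ratios was not tested. Under stricter filters the ratios turned for high-fat over untreated were F13a1 at 2.43, Cd163 at 1.48, Lyve1 at 2.38 and Clec10a at 2.35. At resolution 2 they were 2.51, 1.58, 2.96 and 2.88. In foamy nuclei F13a1 was 1.90, Cd163 1.55 and Clec10a 1.64; in sub-cluster 1 F13a1 was 1.79, Mrc1 1.06, Lyve1 1.22 and Clec10a 1.25; in sub-cluster 4 F13a1 was 2.92, Retnla 2.35 and Clec10a 3.92; Pf4 was 1.66 in sub-cluster 0 and Retnla 1.20 in the Gfra2 Mgl2 sub-cluster. For MTZ-after over high-fat F13a1 was 0.692 at resolution 2, 0.741 in the Gfra2 Mgl2 sub-cluster and 0.521 in sub-cluster 4. For MTZ-simultaneous over high-fat Retnla was 0.272 and Clec10a 0.720 with background taken off; Clec10a was 0.869 under stricter filters, 0.691 at resolution 2, 0.886, 0.536 and 0.844 in sub-clusters 0, 1 and 4, and 0.537 in foamy nuclei. Depth limits Lyve1, Folr2, Cbr2, Pf4 and Arg1, which had 7 or fewer counts each in the high-fat Gfra2 Mgl2 nuclei.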
